A study of Mus musculus with 5 samples.

Results

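Of 11352 genes listed for sorted mouse haematopoietic stem and progenitor cells (HSPCs), 105 carried a Gm symbol, that is, the letters Gm followed by digits and nothing else. They were chosen by symbol, with earlier results of these data known, and Gm15915, another symbol of this form, was left out by the same rule. The cells came from 3 Cux1-low;NrasG12D libraries (genotype Cux1-knockdown;NrasG12D, for short the NrasG12D libraries) and 2 Cux1-low libraries (genotype Cux1-knockdown). The knockdown of Cux1, which encodes a homeodomain transcription factor, was common to all 5 libraries, so the groups differ by NrasG12D, an oncogenic allele of the small GTPase gene Nras. All mice had been given doxycycline and pI:C, which is a double-stranded RNA analogue, over 4 weeks, and polyA RNA was taken from cells gated as KIT+ and SCA1+ without lineage markers or CD135. The labels do not say whether libraries came from separate animals, so the p-values refer to the spread among these 5 samples, which may in part be technical.

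Reads over the listed genes were estimated at 20019507, 17975309 and 16489711 in NrasG12D and 19822779 and 20262498 in Cux1-low. They are the deposited values divided by the value of 1 read, itself inferred from the steps between low values, and they describe depth alone, since they were not accepted for a count test. All 8 HSPC markers looked up were listed, with a summed level of 1477, 1268 and 2305 normalized CPM in NrasG12D and 3195 and 3274 in Cux1-low, and 7 of the 8 had a negative log2 fold change. The 6 megakaryocyte and platelet markers were all negative and summed to 642, 530 and 1090 in NrasG12D and 1238 and 1276 in Cux1-low. Summed over 8 listed of 10 B lineage markers, the level was 269, 551 and 60.5 in NrasG12D and 58.1 and 79.4 in Cux1-low, while 9 listed of 13 erythroid markers summed to 5619 to 10848 in NrasG12D and 4591 to 5028 in Cux1-low. The 6 listed of 8 monocyte, macrophage and granulocyte markers summed to 7816 to 18270 in NrasG12D and 7177 to 10135 in Cux1-low, and only 1 of 7 T lineage markers was listed. None of these markers passed the test used for the Gm models, and Pax5, Rag1 and the globin genes were not among the genes analysed here. The part of these shifts in the results on the Gm models was not tested, and in bulk RNA fewer cells of a type and less RNA per cell cannot be told apart.

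A Gm symbol is a provisional name given to a mouse gene model that was predicted from sequence or transcripts before its function or its relation to a known gene was settled. Such models include processed pseudogenes, which are reverse-transcribed copies of mRNAs such as those of ribosomal proteins, long non-coding RNAs (lncRNAs) transcribed beside or opposite coding genes, and coding genes that were renamed later. Several belong to the interferon-inducible GTPases of the mouse, the immunity-related GTPases (IRGs) and the very large inducible GTPases. These defend cells against intracellular pathogens, and their genes lie in clusters of related copies.

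Promoters are shown for 4 of the 7 models found to hold the letters GAAANNGAAA. These letters are the core of the interferon-stimulated response element, to which IRF and STAT factors bind. The letters were chosen after the values were seen. All 7 models had a negative log2 fold change, from -2.01 to -0.030. The searched models without the letters had a median of -0.27, and a link between letters and fold changes was not tested. The 4 promoters shown are of the models with an unadjusted p under 0.05 (limma), so the values entered the choice. Each is the RefSeq promoter on build GRCm38.p6, with 250 bases before and 50 after the annotated start, written 5′ to 3′ on the gene's strand, with the match on either strand in capitals. The Gm1966 promoter lies at chr7:106644596-106644895 on the minus strand, the Gm12185 promoter at chr11:48927133-48927432 on the minus strand, the Gm12250 promoter at chr11:58183593-58183892 on the plus strand and the Gm12216 promoter at chr11:53859207-53859506 on the minus strand.
Gm1966: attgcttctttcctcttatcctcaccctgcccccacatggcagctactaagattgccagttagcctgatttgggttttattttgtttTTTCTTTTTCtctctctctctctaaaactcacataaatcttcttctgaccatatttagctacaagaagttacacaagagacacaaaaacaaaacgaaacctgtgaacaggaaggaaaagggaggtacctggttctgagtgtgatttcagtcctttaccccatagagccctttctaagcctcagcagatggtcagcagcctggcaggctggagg
Gm12185: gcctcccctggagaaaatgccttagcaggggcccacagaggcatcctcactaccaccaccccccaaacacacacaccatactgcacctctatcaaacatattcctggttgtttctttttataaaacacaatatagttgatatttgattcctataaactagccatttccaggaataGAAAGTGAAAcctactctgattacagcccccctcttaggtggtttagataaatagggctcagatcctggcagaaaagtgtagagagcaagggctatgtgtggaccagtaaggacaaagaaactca
Gm12250: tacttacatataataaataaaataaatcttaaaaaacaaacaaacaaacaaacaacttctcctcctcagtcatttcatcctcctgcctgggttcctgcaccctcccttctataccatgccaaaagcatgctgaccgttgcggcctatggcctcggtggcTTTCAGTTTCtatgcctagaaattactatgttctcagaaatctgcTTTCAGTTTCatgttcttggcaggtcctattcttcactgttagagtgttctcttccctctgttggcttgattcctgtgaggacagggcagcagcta
Gm12216: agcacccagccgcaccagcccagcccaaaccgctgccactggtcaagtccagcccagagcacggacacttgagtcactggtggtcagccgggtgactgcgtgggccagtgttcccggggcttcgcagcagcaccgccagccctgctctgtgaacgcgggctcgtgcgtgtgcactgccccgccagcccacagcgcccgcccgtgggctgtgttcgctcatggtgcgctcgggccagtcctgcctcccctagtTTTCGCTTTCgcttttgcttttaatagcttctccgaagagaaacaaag
Gm12250 has 2 matches, at 91 and 46 bases before its start, and Gm12185 has 1 at 75 bases before it. The match of Gm1966 lies inside a run of T and C bases, and that of Gm12216 lies just after the annotated start.

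RefSeq holds 104 of the 105 models: 38 as lncRNAs, 35 as coding genes and 31 as pseudogenes, of which 30 are transcribed pseudogenes. Gm17066 had no RefSeq entry. By now 19 carry another symbol, among them Hectd4 (Gm15800), Fbrsl1 (Gm29766), Usf3 (Gm608), the lncRNA genes Snhg15 (Gm11974) and Morrbid (Gm14005), and 5 zinc finger genes. In GENCODE M21 on mm10, 96 models could be placed, 80 by their symbol and 16 by a newer one. Of these, 28 had a single exon, and the median exonic length was 1968 bases. With 34 models sharing exonic bases with another gene, 22 of them mostly with a gene on the opposite strand, and with the use of strand in counting not known here, the reads of such overlaps cannot be assigned with certainty.

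Gm models were low in these cells. The median of their mean levels was 4.78 normalized CPM (reads scaled to library size with a composition factor), against 46.7 over all listed genes, and 53 of 105 (50.5%) lay under 5, against 7.86% of all genes. At this depth 1 read was worth 0.0481 to 0.0608 normalized CPM, and the lowest value of a model corresponded to an estimated 7 to 31 reads, depending on the library. Their values summed to 964, 983 and 995 normalized CPM in the NrasG12D libraries and to 1136 and 1121 in the Cux1-low libraries, which was 0.0939% to 0.0993% of each NrasG12D library and 0.115% to 0.117% of each Cux1-low library. Without the 4 GTPase models Gm1966, Gm12185, Gm12250 and Gm4759, left out after their values were seen, the sums were 883, 920 and 883 in NrasG12D and 879 and 877 in Cux1-low, so the lower NrasG12D sums rest on these models. Every listed gene was above 1 in at least 3 libraries, so genes above 1 in the Cux1-low libraries alone are not in the list. Of the 105 models, 101 were above 1 in all 5 libraries.

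Between the groups, 0 Gm models rose and 2 fell in the NrasG12D libraries, Gm1966 and Gm12185 (limma on log2(normalized CPM + 1), Benjamini-Hochberg adjusted p under 0.05 over all 11352 genes). This is 1.90% of the models, beside 1.13% of all genes (0.255% higher, 0.872% lower). At an unadjusted p under 0.05, 7 models were higher and 16 lower (21.9%), beside 31.4% of all genes (14.8% higher, 16.5% lower). In 23 models all NrasG12D values lay above all Cux1-low values and in 33 all lay below, together 53.3%, beside 53.5% of all genes (26.5% above, 27% below). In the authors' deposited table, 4 models were higher and 12 lower at an adjusted p under 0.05, or 15.2%, beside 16.1% of all genes (6.97% higher, 9.14% lower). No model passed without NrasG12D library 1 or without either Cux1-low library, where 3 of all genes did, and without NrasG12D library 2 only Gm1966 did. Without NrasG12D library 3, 5 models were higher and 22 lower (25.7%), beside 37.4% of all genes. With a Cux1-low library left out, that group is 1 sample, which is assumed to vary like the NrasG12D libraries, so a lost call there says little about stability. The median log2 fold change, NrasG12D over Cux1-low as everywhere here, was -0.11 for the Gm models and -0.0030 for all genes.

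Interferon-inducible GTPase models had the 3 largest absolute log2 fold changes of all Gm models. Gm1966 (chr7:106596743-106604035, minus strand, an unprocessed pseudogene in GENCODE and a coding gene at chr7:106595549-106644646 in RefSeq) most resembles the very large inducible GTPase genes. Its transcript aligned to Gvin1 with 92.9% identity over its whole length, and to Gm8979, another Gm model, with 93.3%; neither of these was analysed here. Gm1966 stood at 15.9, 11.1 and 17.4 normalized CPM in the NrasG12D libraries, against 61.6 and 54.2 in the Cux1-low libraries. Every NrasG12D library was far below both Cux1-low libraries, and the groups did not overlap. The model averaged 14.8 ± 3.27 (SD, n = 3) in NrasG12D and 57.9 ± 5.18 (SD, n = 2) in Cux1-low, and its log2 fold change was -1.92 (SE 0.21; adjusted p = 0.0260, limma). Without NrasG12D library 1 it was -1.98 (limma adjusted p = 0.152), and with 1 Cux1-low library left it was -1.83 without library 1 and -2.01 without library 2 (limma adjusted p = 0.331 and 0.313). Reads that match several copies of the family cannot be assigned with certainty.

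Gm12185, which RefSeq also names Irgb2b1 and which belongs to the IRG family, had the most negative log2 fold change of all Gm models. Its GENCODE model spans chr11:48904656-48992226 on the minus strand and shares 223 exonic bases (3.99%) with Tgtp1. RefSeq places the gene at chr11:48904656-48927182. The Gm12185 transcript aligned to Gm5431 with 93.0% identity (51.7% covered) and to 9930111J21Rik2 with 92.8% (49.7% covered). Reads that match several of these copies cannot be assigned with certainty. Gm12185 was at 5.49, 2.91 and 6.38 normalized CPM in NrasG12D, against 25.4 and 19.1 in Cux1-low. The highest NrasG12D library was thus well below the lowest Cux1-low library. Means were 4.93 ± 1.80 (SD, n = 3) in NrasG12D and 22.3 ± 4.51 (SD, n = 2) in Cux1-low, a log2 fold change of -2.01 (SE 0.31; adjusted p = 0.0430, limma). It did not pass with a pseudocount of 0.1 (limma adjusted p = 0.0540). Without NrasG12D library 1 it was -2.10 (limma adjusted p = 0.172) and without NrasG12D library 2 it was -1.73 (limma adjusted p = 0.0603). With 1 Cux1-low library left it was -1.81 without library 1 and -2.21 without library 2 (limma adjusted p = 0.400 and 0.328).

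Gm12250 and Gm4759 are further GTPase models, and neither passed the threshold. Gm12250, also known as Irgb10, an IRG effector that in mice is recruited to bacterial and parasite membranes, was at 29.0, 16.9 and 18.7 normalized CPM in NrasG12D, against 56.9 and 47.4 in Cux1-low. Both Cux1-low libraries were above all NrasG12D libraries, with a log2 fold change of -1.27 (SE 0.24; adjusted p = 0.0549, limma). Scaled to equal library sums, Gm12250 passed (limma adjusted p = 0.0491). Gm4759 (chr7:106417848-106424469, minus strand), a transcribed pseudogene with 87.4% identity to Gvin1 in its best alignment, was at 30.2, 32.5 and 69.3 in NrasG12D, against 113 and 123 in Cux1-low. NrasG12D library 3 stood between the other NrasG12D libraries and the Cux1-low libraries. The log2 fold change of Gm4759 was -1.51 (SE 0.34; adjusted p = 0.0685, limma), and without that library it was -1.88 (limma adjusted p = 0.000812).

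**Figure D1:**
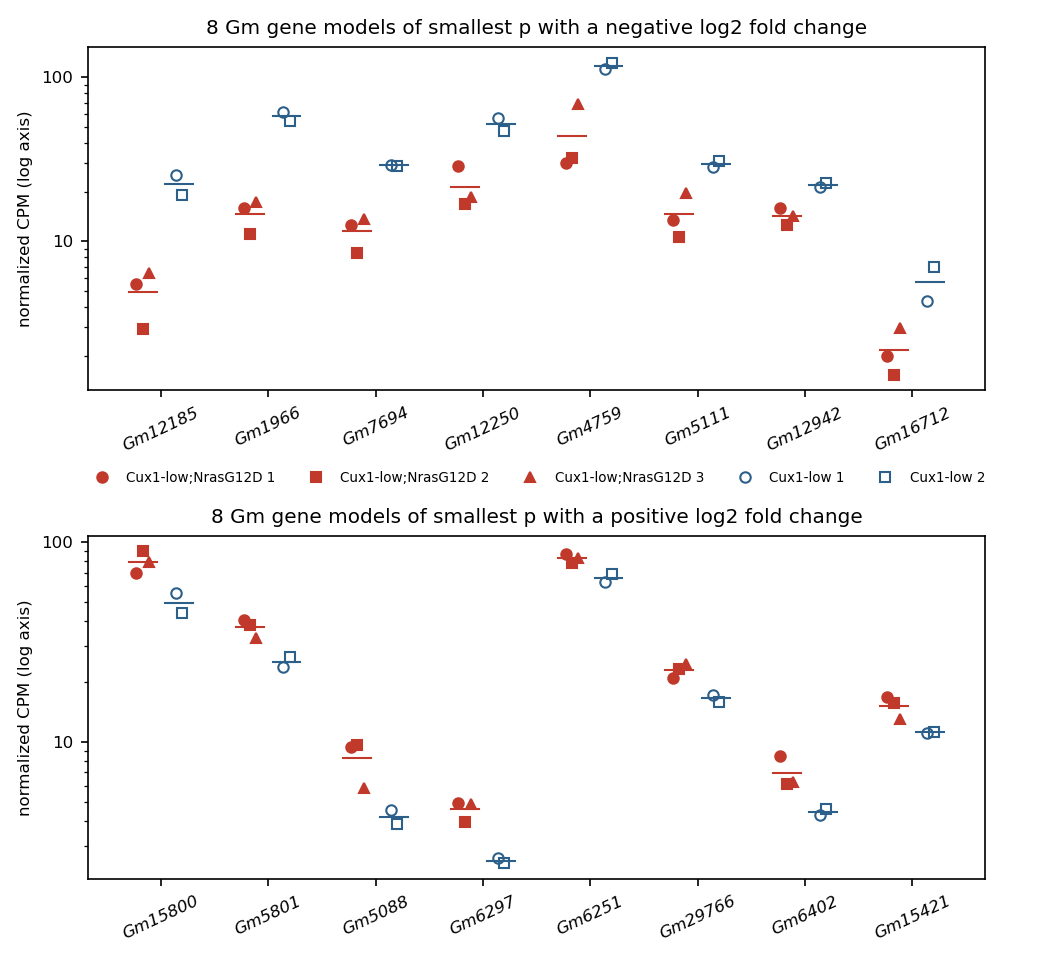
Normalized CPM (log axis) of the 8 Gm models of smallest p in each direction, by library; filled red symbols are the 3 Cux1-low;NrasG12D libraries, open blue symbols the 2 Cux1-low libraries and lines the group means. In the upper panel all NrasG12D values lie below the Cux1-low values, with Gm4759 at 30.2 to 69.3 in NrasG12D and 113 to 123 in Cux1-low; in the lower panel they lie above, with Gm15800 at 69.7 to 90.0 in NrasG12D and 43.9 to 55.3 in Cux1-low.

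The genes listed within 100 kb of the GTPase models were read next, a window chosen after the models' values were seen. Around Gm12250 on chromosome 11, the IRG regulators Igtp and Irgm2 fell as well. Igtp was at 64.6, 49.4 and 62.0 normalized CPM in NrasG12D, against 143 and 120 in Cux1-low (log2 fold change -1.15, SE 0.15, limma adjusted p = 0.0382). Irgm2 was at 13.5, 12.4 and 19.4 in NrasG12D, against 53.5 and 41.3 in Cux1-low (log2 fold change -1.60, SE 0.22, limma adjusted p = 0.0411). In both, every NrasG12D library was below every Cux1-low library. The GENCODE spans of Igtp (chr11:58199556-58207591) and Irgm2 (chr11:58199618-58222782) overlap on the plus strand. Some reads may thus be shared between Igtp and Irgm2, which was not tested. The other genes of that window have no GTPase role, and their log2 fold changes were 0.48 for Mrpl22, a mitochondrial ribosomal protein gene, 0.14 for Gemin5 and -0.094 for Cnot8.

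Around Gm12185, the IRG genes Tgtp1 and Tgtp2 had log2 fold changes of -1.37 and -1.48, each with a limma adjusted p of 0.0508, just short of the threshold. Gm12185 shares 223 exonic bases with Tgtp1, and its transcript aligned to Tgtp2 with 78.0% identity (26.3% covered). Some reads may thus be shared among these genes, which was not tested. Tgtp2 was at 28.0, 18.4 and 34.9 normalized CPM in NrasG12D, against 76.8 and 73.0 in Cux1-low. Irgm1, a regulator of the family that mouse haematopoietic stem cells need for normal function, was at 91.2, 83.3 and 106 in NrasG12D, against 149 and 159 in Cux1-low (log2 fold change -0.72, SE 0.13, limma adjusted p = 0.0511). Groups did not overlap for any of these 3 genes. Ifi47, an IRG gene in the same window, was at 219, 159 and 273 normalized CPM in NrasG12D, against 264 and 225 in Cux1-low. Its groups overlapped, at -0.20 on the log2 scale (SE 0.22; adjusted p = 0.552, limma). Psme2b (0.14), Trim7 (0.50), Trim41 (0.34) and Gnb2l1 (0.54), which lie in the window and are not IRG genes, had positive log2 fold changes, none past the threshold. The gene model 9930111J21Rik1 in this window was at -0.71 (limma adjusted p = 0.0996). The window of Gm1966 held no other listed gene, and likewise that of Gm4759.

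**Figure D2:**
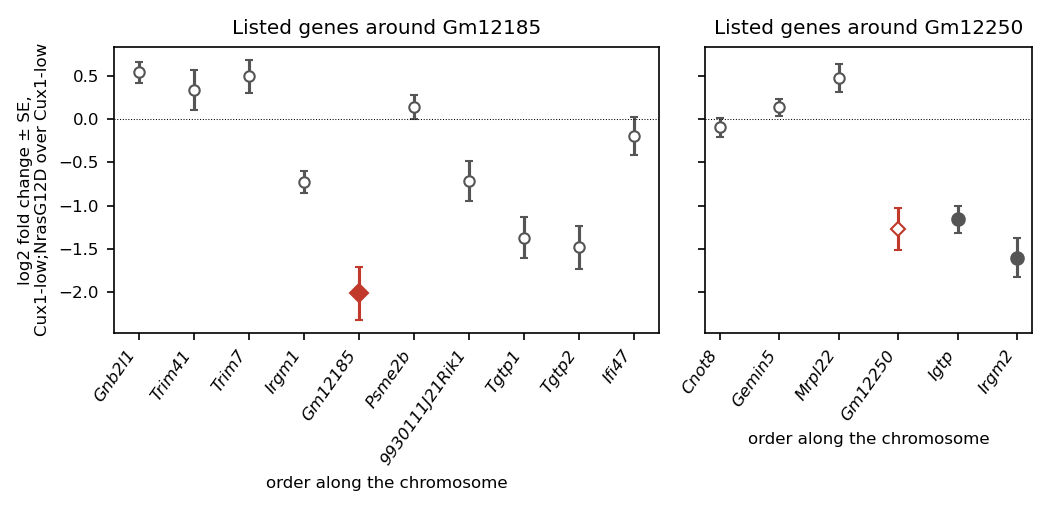
Log2 fold change (Cux1-low;NrasG12D over Cux1-low, with its SE as bars) of the listed genes within 100 kb of Gm12185 and of Gm12250, in their order along chromosome 11; diamonds are the Gm models, circles the other genes, and filled symbols have an adjusted p under 0.05. Gm12185, Igtp and Irgm2 are filled, at -2.01, -1.15 and -1.60, while Ifi47 (-0.20) and Psme2b (0.14) lie near 0 and Mrpl22 (0.48) above it.

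Other coding models of smallest p on the lower side did not pass. Gm7694 (chr1:170298199-170306332, minus strand), which has no descriptive name, was at 12.5, 8.45 and 13.7 normalized CPM in NrasG12D, against 29.3 and 29.0 in Cux1-low. All NrasG12D libraries were below both Cux1-low libraries (log2 fold change -1.29, SE 0.22, limma adjusted p = 0.0508). It passed with equal library sums (limma adjusted p = 0.0460) and with median-of-ratios scaling (limma adjusted p = 0.0499). The model shares 171 exonic bases with Nos1ap, which encodes an adaptor of neuronal nitric oxide synthase and had a log2 fold change of -0.78 (limma adjusted p = 0.0661). Gm5111 was at 13.5, 10.6 and 19.9 in NrasG12D, against 28.5 and 31.1 in Cux1-low (log2 fold change -1.02, SE 0.25, limma adjusted p = 0.0765). It lies 3299 bases from Repin1, a zinc finger gene, whose log2 fold change was -0.61 (limma adjusted p = 0.0977). Gm12942, now Tmem35b, which encodes a transmembrane protein, was at 15.9, 12.7 and 14.2 in NrasG12D, against 21.6 and 22.8 in Cux1-low (log2 fold change -0.61, SE 0.16, limma adjusted p = 0.0818). In neither model did the groups overlap, and Tmem35b shares 682 exonic bases with Zmym6, which was at -0.51.

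No lncRNA model passed the test. At an unadjusted p under 0.05, 1 of the 38 was higher and 7 were lower, beside 31.4% of all genes (14.8% higher, 16.5% lower). Gm16712 lies opposite Ebi3, which encodes a subunit of the cytokines IL-27 and IL-35, and shares 270 exonic bases with it. Gm16712 was at 2.0, 1.54 and 2.98 normalized CPM in NrasG12D, against 4.31 and 6.98 in Cux1-low. The groups did not overlap, and the log2 fold change was -1.06 (SE 0.30; adjusted p = 0.0846, limma). Ebi3 was at 14, 13.8 and 23.6 in NrasG12D, against 44.1 and 50.7 in Cux1-low, with a log2 fold change of -1.45 (SE 0.25; adjusted p = 0.0508, limma). Without known strand, reads over the exonic bases shared by this antisense pair cannot be told apart.

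Gm12216, chosen after its values were seen, lies on the opposite strand, 5044 bases from Irf1, the gene of an interferon-regulated transcription factor. Its levels were 3.18, 2.11 and 3.65 normalized CPM in NrasG12D, against 5.44 and 7.89 in Cux1-low (log2 fold change -0.95, SE 0.27, limma adjusted p = 0.0873). Irf1 was at 118, 93.4 and 134 in NrasG12D, against 209 and 205 in Cux1-low (log2 fold change -0.86, SE 0.16, limma adjusted p = 0.0533). Both genes were lower in every NrasG12D library than in every Cux1-low library. Gm16897, likewise chosen afterwards, overlaps the span of the stem and progenitor marker gene Cd34 on the opposite strand. Its largest exonic overlap, 426 bases, is with A330023F24Rik, also on the opposite strand and not among the genes analysed here. Gm16897 was at 2.05, 1.94 and 3.95 in NrasG12D, against 5.20 and 5.29 in Cux1-low (log2 fold change -0.82, limma adjusted p = 0.119), beside a log2 fold change of -0.64 for Cd34 (limma adjusted p = 0.165). For each of these pairs the model and its neighbour had the same sign.

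Over all models, the share with the sign of the nearest other gene lay above that of the whole list at some distances and below it at others, with no test of the difference. Where the spans overlap, 21 of 35 models had the sign of their neighbour (60%), beside 56.8% of 2234 listed genes. At 1 to 10000 bases, 15 of 31 did (48.4%), beside 56.7% of 4847 genes, and beyond 10000 bases 24 of 39 did (61.5%), beside 54.3% of 4210 genes. Gm14005 is Morrbid, a lncRNA that in mouse myeloid cells represses the apoptosis gene Bcl2l11 beside it. It was at 4.10, 3.48 and 2.19 in NrasG12D, against 2.79 and 3.47 in Cux1-low, which overlapped. Morrbid had a log2 fold change of 0.021 with a 95% interval of -0.63 to 0.67, and Bcl2l11 was at 0.37 (limma adjusted p = 0.368). Morrbid was chosen for its neighbour with its values known.

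On the higher side no model passed. Gm15800 (chr5:121220219-121368577, plus strand), now Hectd4, a gene of the HECT domain family of ubiquitin ligases, was at 69.7, 90.0 and 79.0 normalized CPM in NrasG12D, against 55.3 and 43.9 in Cux1-low. The groups did not overlap, with a log2 fold change of 0.67 (SE 0.16; adjusted p = 0.0726, limma). Gm29766, now Fbrsl1, was at 20.8, 23.1 and 24.4 in NrasG12D, against 17.2 and 15.7 in Cux1-low (log2 fold change 0.44, SE 0.15, limma adjusted p = 0.115). Gm6297 is a lncRNA opposite Dnaja1, a gene of an HSP40 co-chaperone, and shares 249 exonic bases with it. Its levels were 4.92, 3.94 and 4.86 in NrasG12D, against 2.60 and 2.45 in Cux1-low (log2 fold change 0.66, SE 0.21, limma adjusted p = 0.103), while Dnaja1 was at 0.091. Every NrasG12D library was above every Cux1-low library for all 3 models.

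Pseudogenes made up most of the other models of smallest p on the higher side. Gm5801 (chr14:56010536-56011315, minus strand), a processed copy of the ubiquitin-conjugating enzyme gene Ube2j2 with 99.2% identity over its whole length, was at 40.6, 38.2 and 33.1 normalized CPM in NrasG12D, against 23.6 and 26.4 in Cux1-low (log2 fold change 0.55, SE 0.15, limma adjusted p = 0.0808). Ube2j2 itself was at 10.6, 9.76 and 10.1 in NrasG12D, against 14.3 and 13.2 in Cux1-low (log2 fold change -0.40, limma adjusted p = 0.147). The copy and its parent thus had opposite signs, and neither overlapped between groups. At this identity, reads of Gm5801 and Ube2j2 cannot be assigned with certainty, and the part of this in their signs was not tested. Gm5088 was at 9.44, 9.59 and 5.83 in NrasG12D, against 4.56 and 3.85 in Cux1-low (log2 fold change 0.81, SE 0.26, limma adjusted p = 0.0995). Gm6402 was at 8.46, 6.16 and 6.26 in NrasG12D, against 4.26 and 4.57 in Cux1-low (log2 fold change 0.54, SE 0.22, limma adjusted p = 0.143). In both, all NrasG12D libraries lay above all Cux1-low libraries.

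Copies of ribosomal protein genes were among them too. Gm6251, now Rpl32l, with 96.0% identity to Rpl32, was at 87.0, 79.0 and 83.6 normalized CPM in NrasG12D, against 62.9 and 69.4 in Cux1-low (log2 fold change 0.33, SE 0.11, limma adjusted p = 0.113). Rpl32 was at 239, 250 and 233 in NrasG12D, against 198 and 192 in Cux1-low (log2 fold change 0.31, limma adjusted p = 0.0956). Gm15421, 99.7% identical to Rpl22l1 over 79.9% of its length, was at 16.7, 15.6 and 12.9 in NrasG12D, against 11.1 and 11.2 in Cux1-low. Its log2 fold change was 0.40 (SE 0.18; adjusted p = 0.174, limma), beside 0.22 for Rpl22l1. The ribosomal copies and their parents all had higher values in every NrasG12D library than in either Cux1-low library.

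By class, coding and lncRNA models leaned lower and pseudogenes leaned higher, without a test of the difference. Of 35 coding models 26 had a negative log2 fold change (median -0.29), and of 38 lncRNA models 27 did (median -0.25). Of 31 pseudogenes 24 had a positive one (median 0.14), though the pseudogene Gm4759 had the most negative value outside the coding class, -1.51. When all libraries were scaled to equal sums, the median of all genes became -0.065 and 21 of 31 pseudogenes were positive (median 0.082). With 1 library left out, 19 to 23 pseudogenes were positive, with medians between 0.077 without NrasG12D library 2 and 0.26 without NrasG12D library 3. Level also went with sign: under 5 normalized CPM, 37 of 53 models were negative (69.8%), beside 65% of all 892 genes at that level. Between 5 and 20, 19 of 38 models were negative (50%), beside 63.1% of 2287 genes. From 20 upwards, 4 of 14 models were negative (28.6%), beside 45.1% of 8173 genes.

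**Figure D3:**
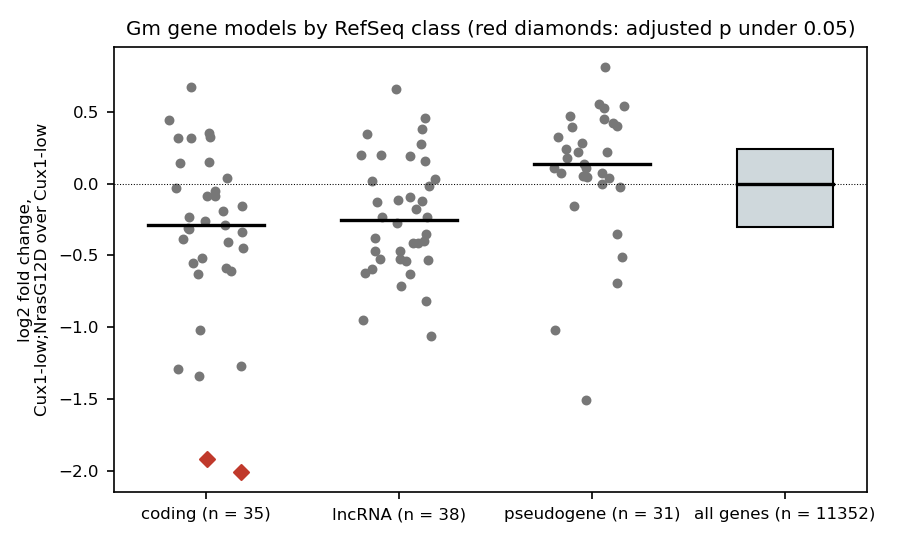
Log2 fold change (Cux1-low;NrasG12D over Cux1-low) of each Gm model by its RefSeq class, with bars at the class medians; the box gives the quartiles and median of all 11352 genes. The medians are -0.29 for coding models, -0.25 for lncRNAs and 0.14 for pseudogenes, and the red diamonds are Gm12185 and Gm1966.

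Many models resemble a better known listed gene. For 37 models a listed gene aligned over at least 50% of the transcript, and for 17 of them with at least 95% identity. In 31 of these 37 the model and its look-alike had the same sign. Among 20 pseudogenes, 17 were positive, 18 of their look-alikes were positive, and the medians were 0.22 for the models and 0.23 for the look-alikes. In 17 of these pairs the signs were the same, but with so many positive on both sides most would match however they were paired. Among 17 coding models, 4 were positive and 14 shared the sign of their look-alike, with medians of -0.26 for the models and -0.29 for the look-alikes. The look-alike had the higher mean level in 33 of 37, and 0 look-alikes passed the test. Some look-alikes serve 2 models, such as the zinc finger genes Zfp758 and Etohi1, so these pairs are not all separate. Reads of such copies may have been split or moved between them in counting, which was not tested.

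Single copies show how far the pairs can differ. Gm4737 is a copy of Ahcy, the gene of S-adenosylhomocysteine hydrolase, with 99.7% identity over 99.5% of its length. It was at 12.5, 12.2 and 11.2 normalized CPM in NrasG12D, against 12 and 11.2 in Cux1-low, which overlapped (log2 fold change 0.041, 95% interval -0.34 to 0.43). Ahcy was at 14.2, 16.3 and 12.3 in NrasG12D, against 7.01 and 5.34 in Cux1-low, without overlap (log2 fold change 1.09, SE 0.20, limma adjusted p = 0.0549). At this identity, reads of Gm4737 and Ahcy cannot be assigned with certainty, and the part of this in their difference was not tested. Gm13498, with 88.8% identity to the chaperone gene Hsp90ab1, was at 20.5, 19.6 and 19.3 in NrasG12D, against 16.3 and 16.9 in Cux1-low (log2 fold change 0.24). Hsp90ab1 was at 0.32 on the same scale. Gm4737 and Gm13498 were chosen after their values were seen.

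**Figure D4:**
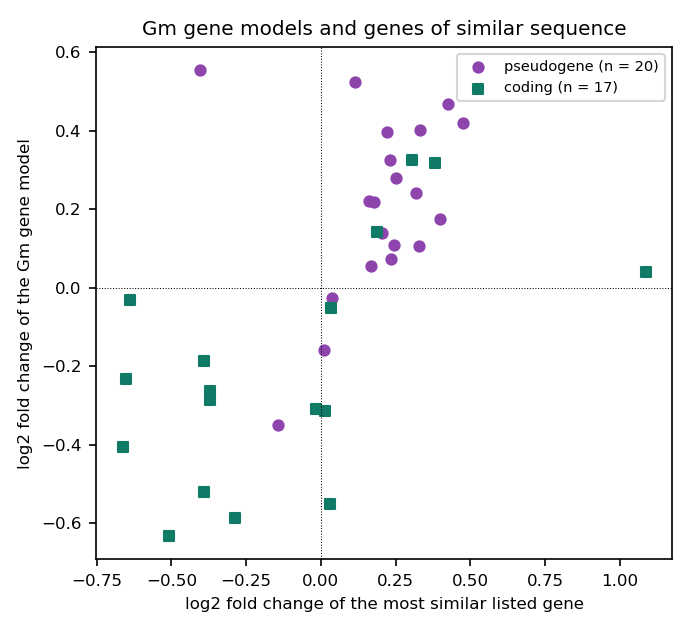
Log2 fold change (Cux1-low;NrasG12D over Cux1-low) of 37 Gm models against that of the listed gene their transcript most resembles, for pseudogenes (circles, n = 20) and coding models (squares, n = 17). In 31 of the 37 both have the same sign; Gm4737 with Ahcy lies far right at 0.041 against 1.09, and Gm5801 with Ube2j2 at upper left at 0.55 against -0.40.

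Per kilobase of exon, Rpl32l had the highest level of the 96 models with a GENCODE length, 191 normalized CPM per kb, followed by Supt4b (Gm3258) at 61.5. Gm4759 (11.1 per kb), Hectd4 (4.11 per kb), Tarbp1 (6.39 per kb) and Snhg15 (27.7 per kb) were the other models among the 5 of highest mean value before division by length. Tarbp1 (Gm17296), which encodes a tRNA ribose methyltransferase, was at 37.2, 55.2 and 36.0 normalized CPM in NrasG12D, against 39.5 and 36.0 in Cux1-low. These overlapped, and the log2 fold change of Tarbp1 was 0.15 (SE 0.20; adjusted p = 0.626, limma), or -0.041 without NrasG12D library 2, the highest of the 5. Snhg15 (Gm11974), a host gene of small nucleolar RNAs, was at 42.5, 37.5 and 41.4 in NrasG12D, against 30.0 and 36.7 in Cux1-low (log2 fold change 0.28, SE 0.14, limma adjusted p = 0.230).

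The models that varied most among the NrasG12D libraries were low. Gm1821, the ubiquitin pseudogene Ubb-ps with 97.7% identity to Ubb, was at 0.872, 11.2 and 6.20 normalized CPM in NrasG12D, against 9.85 and 0.337 in Cux1-low. Both groups thus held a library under 1 and another near 10, whereas Ubb was at 42.5 to 46.3 in NrasG12D and 40.6 to 41.7 in Cux1-low. The log2 fold change of Gm1821 was 0.53 (SE 1.0; adjusted p = 0.743, limma), with a 95% interval of -1.92 to 2.97, and was -0.98 without Cux1-low library 2 and -0.054 without NrasG12D library 2. Gm15910, a lncRNA opposite Msrb3, was at 0.923, 0.571 and 3.16 in NrasG12D, against 2.30 and 2.41 in Cux1-low (log2 fold change -0.53, SE 0.43, limma adjusted p = 0.418), and without NrasG12D library 3 its log2 fold change was -0.95 (limma adjusted p = 0.0220). Gm973, a coding model, was at 1.33, 0.97 and 3.89 in NrasG12D, against 5.78 and 6.5 in Cux1-low (log2 fold change -1.34, SE 0.40, limma adjusted p = 0.0920). In Gm15910 and Gm973, NrasG12D library 3 was the highest of its group.

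NrasG12D library 3 stood nearer to Cux1-low in many models. For 12 models the mean of NrasG12D libraries 1 and 2 differed from the Cux1-low mean by at least 1 on the log2 scale, a choice that used those libraries, so what follows is a description. Library 3 was placed on a scale with 0 at the Cux1-low mean and 1 at that of libraries 1 and 2. Its median position was 0.51 for these models, beside 0.43 for 1033 genes chosen alike. The GTPase models Gm12250 (1.19), Gm1966 (0.82) and Gm12185 (0.75) were at or near the level of the other NrasG12D libraries, and so was Gm7694 (0.73). Gm4759 was at 0.40, and Gm973 was the lowest at 0.31. The summed HSPC markers of library 3, 2305 normalized CPM, also lay between those of the other NrasG12D libraries (1477 and 1268) and those of Cux1-low (3195 and 3274), and their part in these positions was not tested.

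**Figure D5:**
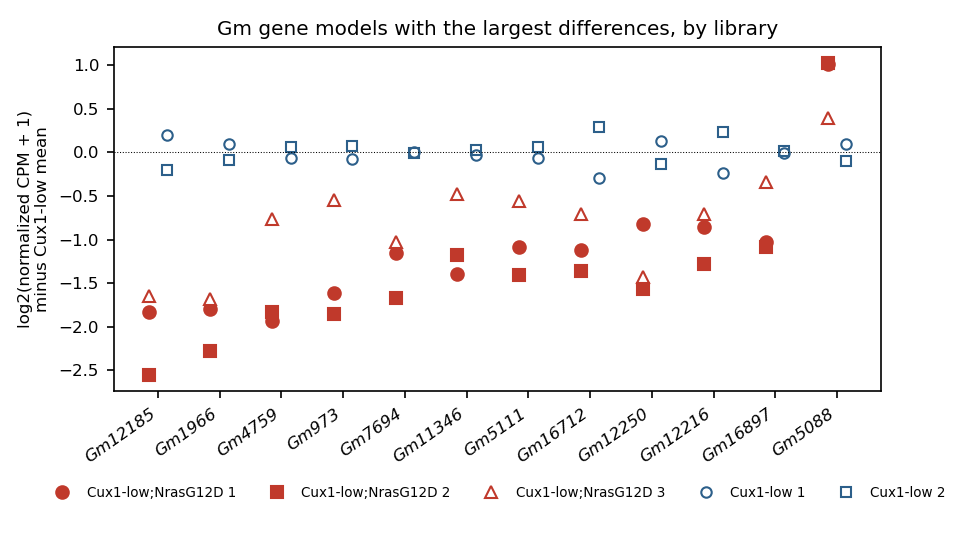
Log2(normalized CPM + 1) of each library minus the Cux1-low mean, for the 12 Gm models whose NrasG12D libraries 1 and 2 differ from Cux1-low by at least 1 on average; red symbols are Cux1-low;NrasG12D libraries (library 3 as an open triangle), blue symbols the Cux1-low libraries. Library 3 lies between the groups for Gm4759 and Gm973 and beside library 2 for Gm12250.

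Of the letters searched in the 68 RefSeq promoters of 62 models, on both strands, GAAANNGAAA was found in 7 models (11.3% of the models), beside 3.99% of the 27025 genes with a promoter in the table, each counted once however many promoters it has. These were Gm12185, Gm12216, Gm12250, Gm1966, Gm14085 (now Slc28a2b), Gm13152 and Gm4944 (now the zinc finger genes Zfp982 and Zfp994). All 7 had a negative log2 fold change (median -0.95), from -2.01 in Gm12185 to -0.030 in Slc28a2b, and the models without the letters had a median of -0.27. TTCNNNGAA, the site of STAT dimers, was found in 5 models (8.06%), beside 9.55% of genes, and Gm12185, Gm12250 and Gm12216 held it as well as GAAANNGAAA. All 5 were negative too, but these models overlap with those of GAAANNGAAA. The median was again -0.95, which is the value of Gm12216 in both cases. The models with TTCNNNGAA alone, Gm4285 and Gm5113, were at -0.53 and -0.017. CCGGAAG, an ETS site, was found in 9 models (14.5%), beside 9.93% of genes. TGANTCA, an AP-1 site, was found in 8 models (12.9%), beside 8.97% of genes. Of the models with CCGGAAG 5 were negative (median -0.11), and of those with TGANTCA 6 were (median -0.57). The letters were chosen after the values were seen, and a match is no evidence that a factor binds there.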

How the data were processed

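Polyadenylated RNA of 5 libraries (TruSeq v2) had been sequenced by the authors. Tools named in the submitters' processing notes are HTSeq, TopHat and edgeR, with no version or role, and the builds are hg19 and mm10. The deposited signal values, headed CPM per the file headers, summed to 971746 to 1026780 per library, so they are not plain CPM and are called normalized CPM. The authors' deposited table also gives a log2 fold change and mean, a likelihood ratio score, and p-values raw and adjusted, of which the text uses counts of calls. Low values were whole multiples of 1 read within 0.01 of a step, but the recovered reads were not accepted for a count test, so none was run and read numbers are estimates for depth alone.

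The test was limma 3.58.1 (R 4.3.3) with a variance trend on log2(normalized CPM + 1), comparing the 3 NrasG12D libraries with the 2 Cux1-low ones without a block, two-sided, Benjamini-Hochberg over all genes. A filter of at least 1 in at least 2 libraries removed 0 genes. The test was also run on simulated data of 11352 genes with known changes. Those data had the same setting of spread for every gene and library, so the run does not measure the error in these libraries. Fold changes on this scale understate the change of low genes; intervals are 95% intervals of the fit.

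The members and lists were chosen with earlier results of these data known. Named models are those past the threshold, those of smallest p up to 8 in each direction, the 5 of highest mean, and the 3 of widest range among the NrasG12D libraries. Positions are from GENCODE M21 (mm10) and RefSeq GRCm38.p6. Transcripts were aligned with blastn 2.17.0 on the same strand (e-value under 1e-10) and coverage was summed over alignments. Other steps used Python 3.11.15, numpy 2.4.6, pandas 2.3.3 and matplotlib 3.10.9. Alternatives were the pseudocount, the filter, the scaling, a robust variance, a replicate block and each library left out.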

Additional observations from a re-analysis of the deposited data

How the results depend on the processing

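The counts of Gm models past the threshold were small and moved with the libraries used. Leaving out 1 library at a time gave 0 to 5 higher and 0 to 22 lower Gm models, and 3 to 2043 higher and 0 to 2200 lower of all genes. The upper ends came without NrasG12D library 3. Without NrasG12D library 1, or without either Cux1-low library, 3 genes of the whole list passed and no Gm model. Without NrasG12D library 2, Gm1966 alone passed among the models. With a pseudocount of 0.1, 1 Gm model and 63 of all genes were lower, and with libraries scaled to equal sums 4 Gm models (adding Gm7694 and Gm12250) and 182 of all genes. Median-of-ratios scaling added Gm7694 (3 lower). A pseudocount of 0.5 and a robust variance left 0 higher and 2 lower, as did a mean of at least 5, which tested 52 of the 105 models. The filter removed 0 genes, so leaving it out is the same fit. The adjusted p of Gm12185 ranged from 0.00299 to 0.400, and that of Gm1966 from 0.00154 to 0.331, over the libraries left out. With 1 library left out, 5 to 10 of the 105 models changed sign. Among the named models, signs reversed for Gm17296 (log2 fold change -0.041, range -0.041 to 0.26 over the libraries left out) and Gm1821 (-0.054, range -0.98 to 2.04) without NrasG12D library 2, and for Gm1821 without Cux1-low library 2 (-0.98).

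The replicate numbers in the labels are not shown to pair the samples: deviations from the group means correlated at -0.19 for number 1 and at -0.0035 for number 2. A fit with the replicate number as a block leaves NrasG12D library 3 without a partner, so it gives the fold changes without that library. It called 4 Gm models higher and 21 lower, and 1892 and 2271 of all genes. Precision for low models is limited by depth: the lowest value of a model in a library corresponded to an estimated 7 to 31 reads.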
